A study of Sorghum bicolor with 12 samples.

Results

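The stretch of sorghum (Sorghum bicolor) chromosome 2 described here is made up of the 412 genes of the count table whose IDs run from Sobic.002G120000 to Sobic.002G160000, of 34129 genes in all and 4416 on chromosome 2. The digits after "Sobic." give the chromosome and the rest number the genes along it. The stretch was chosen by measured values of these pools: its ends were set after genes read only in bri1-ems72 replicate 1 and WT-ems72 replicate 1 had been seen to carry such IDs. The pattern of those genes over the pools is therefore a description and carries no test. The comparison of bri1-ems72 with WT-ems72 was fitted over the whole table.

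Root mRNA had been sequenced from 3 pools of bri1-ems72, a mutant line in the brassinosteroid receptor gene BRI1, and 3 pools of WT-ems72, its wild-type sibling. Both came from the same BC2F2 population, were untreated, and were grown in vitro at 28 °C for 8 days from embryos explanted 13 to 17 days after anthesis. Each pool held at least 6 roots, so a level is an average over plants, and the mutant is a single line named by its EMS number. Each pool was read in 2 technical runs, and the 2 columns of a pool were summed. The pools had 44896605, 50526498 and 51018644 counts in bri1-ems72 replicates 1, 2 and 3, against 45421703, 44357644 and 54629427 counts in the WT-ems72 replicates. The table pairs no ID with a gene name or product, so neither the root tissue nor the genotype labels were checked here against marker transcripts or BRI1, and the products of the 412 genes are not given.

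BRI1 is a receptor kinase in the plasma membrane that perceives brassinosteroids, steroid hormones that promote cell elongation and root growth in plants. A backcross population is made by crossing a mutant repeatedly to another plant and then selfing, which leaves chromosome segments of either parent segregating among sibling plants. A gene that 1 parental chromosome lacks, or does not express, is then read only in pools that include a plant with the other version. The counts hold no sequence variants, so the parental origin of this stretch was not tested.

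Most of the stretch was expressed in roots at ordinary levels. A gene's level is given in CPM, its count scaled to library size. Of the 412 genes, 318 were read in some pool and 94 (22.8%) in none, against 565 of 4004 (14.1%) on the rest of chromosome 2. The highest pool reached at least 1 CPM for 243 genes (59.0%), against 2672 (66.7%) on the rest of the chromosome. The 249 genes that passed the filter on low counts had a median of 18.0 CPM over the 6 pools, with an upper quartile of 42.2 CPM. On the rest of the chromosome the median of the 2817 genes that passed was 15.3 CPM. A larger share of these genes was thus read in no pool, and those that passed the filter had levels like the others; neither difference was tested.

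The stretch took 1.11%, 1.08% and 0.944% of all counts in bri1-ems72 replicates 1, 2 and 3, against 1.01%, 1.07% and 0.922% in the WT-ems72 replicates. Its summed level was 10526 ± 1160 CPM in bri1-ems72 and 9999 ± 886 CPM in WT-ems72 (SD, n = 3 each), a difference of 526 CPM that is smaller than either SD. The most abundant gene was Sobic.002G124700. It had 1734, 1036 and 599 CPM in bri1-ems72 replicates 1, 2 and 3, against 665, 1285 and 644 CPM in the WT-ems72 replicates. The 2 genotypes overlapped, with the highest pool 2.90-fold above the lowest. Its log2 fold change of bri1-ems72 over WT-ems72 was 0.38 (SE 0.48), and -0.093 without bri1-ems72 replicate 1. The next was Sobic.002G126600, at 711 ± 268 CPM in bri1-ems72 and 570 ± 267 CPM in WT-ems72 (SD, n = 3 each). The 5 most abundant genes held 26.1% of the summed level, and the other 3 averaged between 310 and 388 CPM in either genotype.

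A small number of genes gave reads in certain pools and next to none in the rest. A gene was counted as such when its highest pool had at least 1 CPM and every pool lay either above 20% of that highest pool or below 2% of it, with at least 1 pool below. This rule was met by 29 genes of the table, 0.129% of the 22475 genes with a highest pool of at least 1 CPM. The stretch held 4 of them (1.65% of its 243) and the rest of chromosome 2 held 1 (0.0374% of 2672). This excess is what the stretch was chosen for. Of the 4 genes, 3 were read only in bri1-ems72 replicate 1 and WT-ems72 replicate 1, a pattern that 5 genes had in the whole table (0.0222%). The fourth was read only in bri1-ems72 replicate 1. None of the 4 patterns separated the genotypes.

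Sobic.002G153200 was the most abundant of the genes read only in bri1-ems72 replicate 1 and WT-ems72 replicate 1. It had 7.81, 0 and 0 CPM in bri1-ems72 replicates 1, 2 and 3, against 1.77, 0.137 and 0.0182 CPM in the WT-ems72 replicates. These values were 334, 0 and 0 counts in bri1-ems72 and 82, 6 and 1 counts in WT-ems72. The top pool was thus a mutant pool, the next a wild-type pool, and the 4 others were at or close to 0.

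Sobic.002G123800 had 1.29, 0 and 0 CPM in bri1-ems72, against 0.302, 0 and 0 CPM in WT-ems72, from 55 and 14 counts in the 2 pools that were read. Sobic.002G149000 had 1.38, 0 and 0 CPM in bri1-ems72 and 0.539, 0 and 0 CPM in WT-ems72, from 59 and 25 counts. For both genes the 4 other pools held no count at all. A count of 0 allows a level of up to 3 counts, which is 0.0545 to 0.0687 CPM in those 4 pools. Set against the highest of these limits, the level in bri1-ems72 replicate 1 was at least 18.7-fold higher for Sobic.002G123800 and at least 20.1-fold higher for Sobic.002G149000. These limits, like the intervals below, cover counting error only.

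Sobic.002G159400 differed from the others in WT-ems72 replicate 1. It had 4.19, 0.0768 and 0 CPM in bri1-ems72 replicates 1, 2 and 3, against 0, 0.0229 and 0 CPM in the WT-ems72 replicates. These were 179, 4 and 0 counts in bri1-ems72 and 0, 1 and 0 counts in WT-ems72. Its reads thus came almost only from bri1-ems72 replicate 1. Its level there was below the mean level of 77.9% of the genes of the stretch that passed the low-count filter. Of all genes in the table, 3 others were read in bri1-ems72 replicate 1 only. Their level in WT-ems72 replicate 1 was at most 1.00% of that in bri1-ems72 replicate 1, where the rule asks for less than 2%.

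Genes just outside the rule showed the same order of pools. Sobic.002G154100 had 2.06, 0 and 0 CPM in bri1-ems72 and 0.410, 0 and 0 CPM in WT-ems72. It missed the rule because WT-ems72 replicate 1 stood at 19.9% of the highest pool. Scaling to total library size brought it in, to 5 genes in the stretch of which 4 had the shared pattern. Sobic.002G143766 was the most abundant gene of this kind, with 14.1, 0.0192 and 0 CPM in bri1-ems72 replicates 1, 2 and 3, against 1.99, 0.367 and 0 CPM in the WT-ems72 replicates. Here WT-ems72 replicate 2 also held 16 counts, so a low level was present in that pool too. The other gene just outside, Sobic.002G125300, had a different order, with 0.234, 0.307 and 0.0195 CPM in bri1-ems72 and 0.712, 0.619 and 0 CPM in WT-ems72.

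The genes just inside the rule were Sobic.002G159400, whose bri1-ems72 replicate 2 stood at 1.83% of the highest pool, Sobic.002G153200, whose WT-ems72 replicate 2 stood at 1.76%, and Sobic.002G123800. A further gene, Sobic.002G146100, was singled out after its values were seen. It had 4.65, 0 and 0 CPM in bri1-ems72 and 0.453, 0.0229 and 0 CPM in WT-ems72, and WT-ems72 replicate 1 was below 20% of the highest pool.

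**Figure D1:**
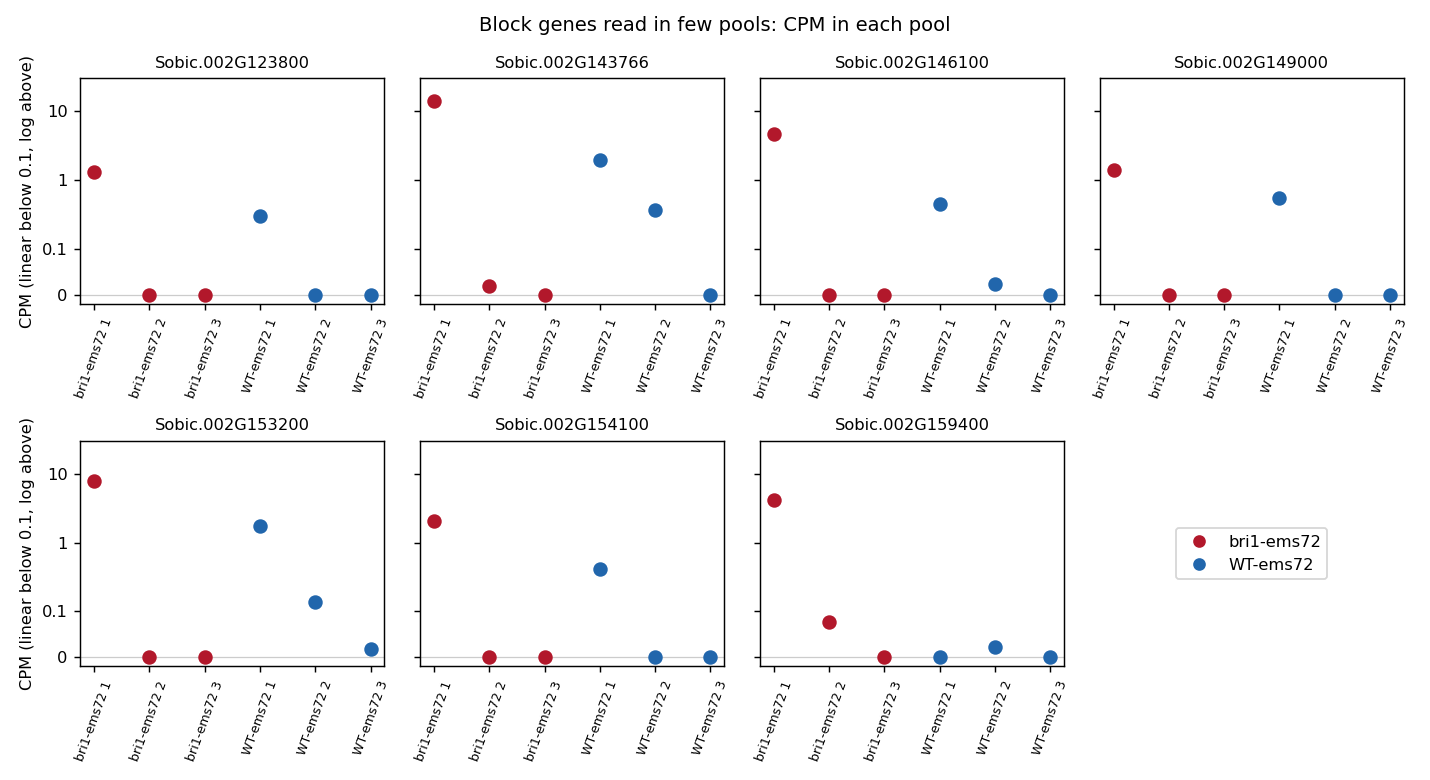
CPM of 7 genes of the stretch in each of the 6 pools, on an axis that is linear below 0.1 CPM and logarithmic above, with bri1-ems72 pools in red and WT-ems72 pools in blue; each point is 1 pool. In all 7 genes bri1-ems72 replicate 1 was the highest pool, and in 6 of them WT-ems72 replicate 1 was the next highest, while Sobic.002G159400 had no count there. The genes were chosen by these values, so the order of pools is a description.

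These 7 genes are the 4 that met the rule and the others picked because both pools lay above each of the other 4 by more than 1 in log2 CPM. Sobic.002G125300, just outside the rule with another order, is not among them. Across the 7 genes bri1-ems72 replicate 1 was the highest pool each time, and WT-ems72 replicate 1 was next in 6. For those 6 genes the choice itself made these 2 pools the top 2, so their place above the other 4 is no result. The gap did not fix which of the 2 was higher, and that order was not tested. The reads were found in both technical columns of bri1-ems72 replicate 1 for 7 of 7 genes and in both columns of WT-ems72 replicate 1 for 6 of 7. For Sobic.002G153200 the 2 columns held 161 and 173 counts in bri1-ems72 replicate 1 and 31 and 51 counts in WT-ems72 replicate 1. For the 6 shared genes reads were thus present in both columns of each of these 2 pools. With the first-listed columns alone 1 gene of the stretch met the rule with the shared pattern, and with the second-listed columns alone 3 did. A count of 0 was found in bri1-ems72 replicate 3 for 7 of the 7 genes, in bri1-ems72 replicate 2 for 5, in WT-ems72 replicate 3 for 6 and in WT-ems72 replicate 2 for 3. Only 1 of the 7, Sobic.002G143766, passed the filter on low counts, which asks for a minimum level, and not just any reads, in 3 pools. Even in bri1-ems72 replicate 1 their levels were modest. Each was below the mean level of 57.8% to 89.6% of the genes of the stretch that passed the filter.

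The level in WT-ems72 replicate 1 was a different share of that in bri1-ems72 replicate 1 from gene to gene. Shares are given with exact (Clopper-Pearson) 95% intervals of the counts. The share was 39.1% (23.5% to 63.4%) for Sobic.002G149000, 23.5% (12.1% to 42.8%) for Sobic.002G123800 and 22.7% (17.6% to 28.9%) for Sobic.002G153200. It was 19.9% (11.5% to 33.0%) for Sobic.002G154100, 14.0% (11.1% to 17.5%) for Sobic.002G143766 and 9.74% (5.90% to 15.3%) for Sobic.002G146100. For Sobic.002G159400 it was 0%, with an upper limit of 1.92%. The intervals of the first 4 genes overlapped, whereas those of Sobic.002G143766 and Sobic.002G146100 both lay below the intervals of Sobic.002G149000 and Sobic.002G153200, and that of Sobic.002G159400 lay below all others. The 2 genes that met the rule with the shared pattern on other chromosomes had shares of 23.5% and 29.8%, where the rule asks for more than 20%. The spread between plants of a pool is not part of these intervals. The rule that grouped the genes also uses this share. It asked for more than 20% for the shared pattern and for less than 2% for Sobic.002G159400. Which genes lie high or low is thus partly set by the rule, and the comparison of intervals carries no test.

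The genes of this kind lay among genes that were read in every pool. Of the 7, the last 6 in ID order fell within 166 successive genes of the table, from Sobic.002G143766 to Sobic.002G159400. Between them lay 81 other genes with a highest pool of at least 1 CPM, and all 81 were read in every pool. In 73 of the 81 every pool stood above 20% of the highest. Over the whole stretch, 236 of the 243 genes with at least 1 CPM in a pool were read in every pool. On the rest of chromosome 2 this held for 2651 of 2672 and in the table for 22296 of 22475. The 7 that were not are the genes above, which were picked for their near absence from some pools. Every pool stood above 20% of the highest in 213 of the 243 genes of the stretch (87.7%, the 7 included), against 2327 of 2672 (87.1%) on the rest of chromosome 2.

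The immediate neighbours of the 4 genes that met the rule were each read either in all 6 pools or in none. Next to Sobic.002G153200, Sobic.002G153100 had 9.10, 13.5 and 10.1 CPM in bri1-ems72 replicates 1, 2 and 3, against 15.2, 11.9 and 11.9 CPM in the WT-ems72 replicates. On its other side Sobic.002G153400 had 23.4, 15.2 and 18.9 CPM in bri1-ems72 and 18.0, 22.2 and 23.6 CPM in WT-ems72. Next to Sobic.002G159400, Sobic.002G159300 had 54.2, 52.7 and 40.6 CPM in bri1-ems72 and 48.5, 53.7 and 36.3 CPM in WT-ems72. The gene before Sobic.002G149000, Sobic.002G148900, had 25.6, 21.2 and 23.7 CPM in bri1-ems72 and 27.2, 16.5 and 20.3 CPM in WT-ems72. There bri1-ems72 replicate 1 and WT-ems72 replicate 1 were the 2 highest pools, by a small margin. The gene after Sobic.002G123800, Sobic.002G123900, had 2.57, 4.45 and 4.75 CPM in bri1-ems72 and 3.15, 5.11 and 3.93 CPM in WT-ems72, so the same 2 pools were the lowest. In the other neighbours that were read these pools were neither the 2 highest nor the 2 lowest. The gene before Sobic.002G123800 and the gene after Sobic.002G149000 were read in no pool.

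The 2 pools were then followed over all expressed genes of the stretch, to see whether they stood together beyond the few genes above. Both pools lay above each of the other 4 in 19 of the 243 genes with at least 1 CPM in a pool (7.82%), where 7.63% of all such genes in the table did so. Both lay below the other 4 in 26 genes (10.7%), where the table gave 7.83%. With a gap of more than 1 in log2 CPM, both lay above in 6 of 243 genes (2.47%), against 16 of 2672 (0.599%) on the rest of chromosome 2 and 0.396% of the table. No gene of the stretch had both below by that gap, which 0.0445% of the table had. The 6 genes are those named above apart from Sobic.002G159400, so this excess again restates how the stretch was chosen. Gaps of that size were thus found in these 6 of the 243 genes. When gaps of any size were counted, the 2 pools stood above the others about as often as elsewhere. They stood below them more often (10.7%, against 7.19% on the rest of chromosome 2), which was not tested. Among the genes that passed the low-count filter, both lay above in 15 of 249 (6.02%, against 7.3% of all such genes) and both below in 28 (11.2%, against 7.97%).

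**Figure D2:**
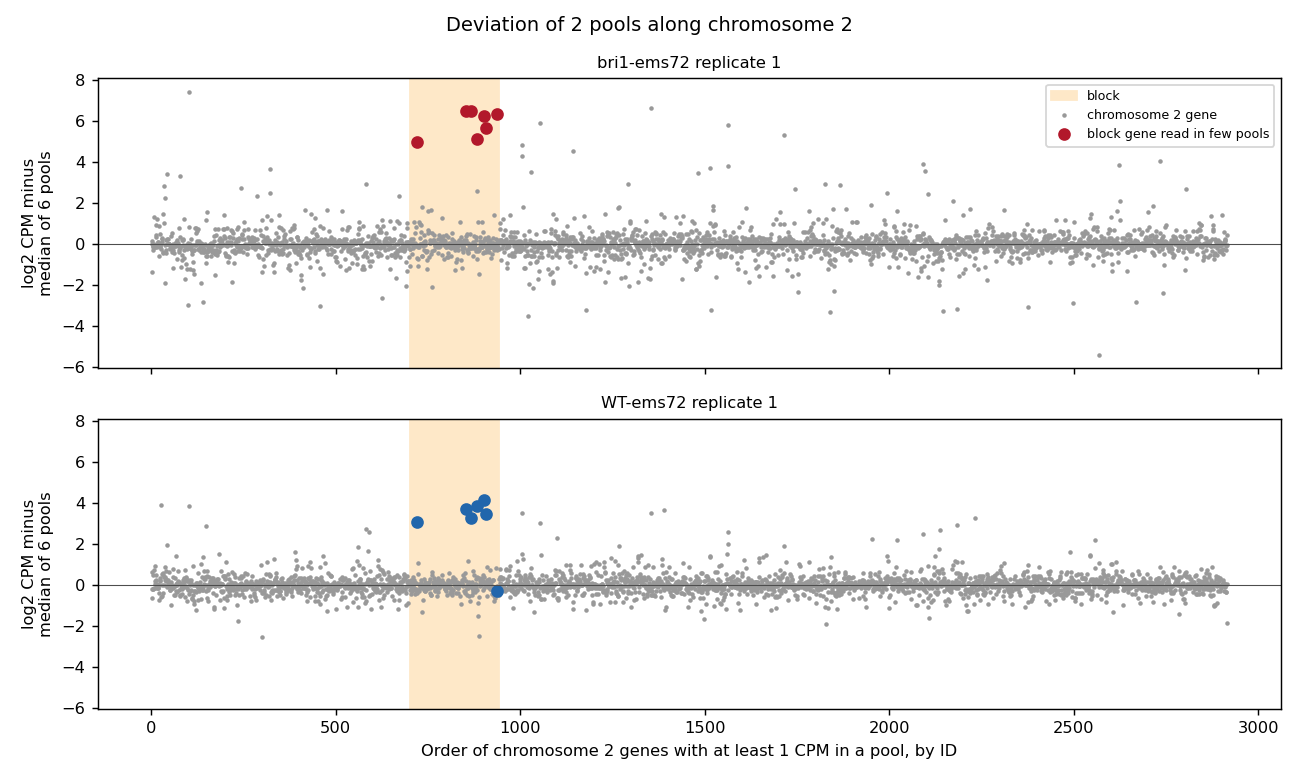
Log2 CPM of bri1-ems72 replicate 1 (upper panel) and WT-ems72 replicate 1 (lower panel) minus the median of the 6 pools, for chromosome 2 genes with at least 1 CPM in a pool, in ID order; the stretch is shaded and its 7 genes read in few pools are the large points. The 7 genes, which were chosen by such values, stand far above the other genes of the stretch in the upper panel. In the lower panel 6 of them do so, while the other 236 genes scatter around 0.

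The place of the gap genes by ID is given as a description, since genes of this pattern set the ends of the stretch. In windows of 10000 ID numbers, 3 of the 6 fell at 140000 to 150000, 2 at 150000 to 160000 and 1 at 120000 to 130000, and the window at 130000 to 140000 held 0. Outside the stretch, 27 of 40 windows held none. The window at 170000 to 180000, which lies beyond the end set for the stretch, held 3, and the one between, at 160000 to 170000, held 0. Gaps of this size are therefore not particular to the 4 windows of the stretch. The window at 170000 to 180000 held 0 genes that met the rule for reads in some pools only. With ends at 110000 and 170000 the count stayed at 6, and with ends at 130000 and 150000 it was 3.

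Among the 249 genes that passed the low-count filter, the deviations of the 2 pools from the mean of the 6 had a Pearson's r of 0.21. The filter leaves out most of the genes above but keeps Sobic.002G143766, which has the pattern for which the stretch was chosen. This r is therefore not free of that choice, and r without that gene was not computed. The r of 0.21 ranked 2 among the 15 pairs of pools, after bri1-ems72 replicate 3 and WT-ems72 replicate 3 (0.45). On the rest of chromosome 2 bri1-ems72 replicate 1 and WT-ems72 replicate 1 had -0.019 and ranked 4, with a range of -0.49 to 0.29 over the 15 pairs. These correlations are across genes, which are not independent, and across pools that share the mean subtracted from them, so they are given as a description.

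Taken pool by pool, bri1-ems72 replicate 1 exceeded each other pool by more than 4-fold in 6 of the 243 genes (2.47%), against 14 of 2672 (0.524%) on the rest of chromosome 2 and 136 of 22475 (0.605%) in the table. Of these 6 genes, 5 are among the 7 above, for whose pattern the stretch was chosen, so the higher share is no result about the stretch. The sixth, Sobic.002G149200, was read in every pool. None of the other 5 pools did so in any gene of the stretch. In the table each of them did so in only 0.0311% to 0.311% of genes, so the count of 0 is close to the table's shares. The pool that fell below each other by more than 4-fold was WT-ems72 replicate 2, in 2 genes (0.823%), against 14 (0.524%) on the rest of the chromosome and 83 (0.369%) in the table. These 2 genes, Sobic.002G154600 and Sobic.002G154700, are next to each other in the table and were picked out from their values. Sobic.002G154600 had 52.2, 38.5 and 31.9 CPM in bri1-ems72, against 81.4, 7.84 and 56.9 CPM in WT-ems72. Sobic.002G154700 had 3.25, 2.78 and 4.19 CPM in bri1-ems72, against 2.31, 0.206 and 2.02 CPM in WT-ems72. In both, the low pool was a single wild-type pool and the other 5 were within 3-fold of each other. Of the 14 genes whose highest pool was more than 10-fold above the lowest, bri1-ems72 replicate 1 was the highest in 10, of which 7 are the genes above. It was the highest in 3 of the 7 wide-range genes that remain without them. On the rest of the chromosome it was the highest in 42 of 159 such genes (26.4%). The share of genes with so wide a range was 5.76% in the stretch and 5.95% on the rest of the chromosome.

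**Figure D3:**
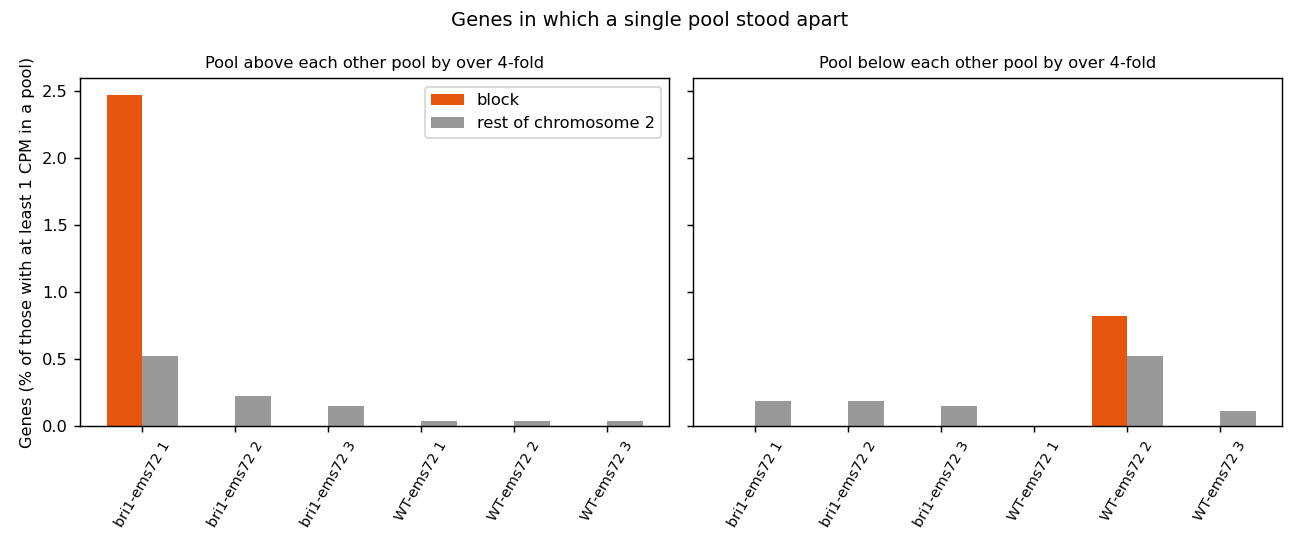
Share of genes with at least 1 CPM in a pool in which a single pool lay above (left) or below (right) each of the 5 others by more than 4-fold, for the stretch (orange, 243 genes) and the rest of chromosome 2 (grey, 2672 genes), by pool. In the stretch only bri1-ems72 replicate 1 stood above, in 2.47% of genes, and only WT-ems72 replicate 2 stood below, in 0.823%. Over the whole table these shares were 0.605% and 0.369%, and each other pool stood above in at most 0.311% of genes. Of the 6 genes behind the 2.47%, 5 have the pattern for which the stretch was chosen.

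The genotype comparison asked which transcripts of the stretch differed between bri1-ems72 and WT-ems72. With a single mutant line, BRI1 cannot be told apart from other differences that go with the genotype. None was called. With an adjusted p below 0.05 as the threshold, 0 of 249 genes tested were higher in bri1-ems72 and 0 were lower (edgeR quasi-likelihood test, lowest adjusted p = 1.00), as in the whole table (0% of 23707 genes). Unadjusted p-values below 0.05 were found for 4 genes (1.61%), close to the 1.42% of the table. All 4 were higher in bri1-ems72 (1.16% of the table was higher and 0.262% lower at that level). DESeq2 called 1 gene (0.0169% of the table was called) and gave 6 at an unadjusted p below 0.05 (2.41%, against 2.24% of the table). With limma-voom 0 were called, as in the table (0%), and 4 had an unadjusted p below 0.05 (1.61%, against 1.3% of the table). The median log2 fold change was -0.021, against -0.0075 on the rest of chromosome 2 and -0.012 over all genes tested. The 2 genotypes did not overlap in 12 genes (4.82%, against 4.57% of the table), 8 of them higher in bri1-ems72 (2.87% of the table) and 4 lower (1.7% of the table).

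The gene with the lowest p of the stretch was Sobic.002G158300. It had 5.33, 3.01 and 3.43 CPM in bri1-ems72 replicates 1, 2 and 3, against 1.12, 0.985 and 1.27 CPM in the WT-ems72 replicates. Every mutant pool lay above every wild-type pool, and the means of 3.92 ± 1.24 CPM in bri1-ems72 and 1.13 ± 0.144 CPM in WT-ems72 (SD, n = 3 each) differed by more than either SD. Its log2 fold change was 1.80 (SE 0.37, 95% interval 0.92 to 2.67), with an unadjusted p of 0.0018 and an adjusted p of 1.00 over all genes (edgeR). DESeq2 called this gene (log2 fold change 1.80, adjusted p = 0.0236), and no other test run here did. Leaving out each pool in turn gave 1.495 to 1.95.

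Sobic.002G156700 had 36.5, 36.7 and 34.5 CPM in bri1-ems72, against 25.5, 21.2 and 16.7 CPM in WT-ems72. The mutant pools were close together and all above the wild-type pools. Its log2 fold change was 0.77 (SE 0.21, 95% interval 0.28 to 1.25; edgeR unadjusted p = 0.0075, adjusted p = 1.00). The other 2 genes at an unadjusted p below 0.05 had log2 fold changes of 0.86 and 0.63. Among genes with lower levels in bri1-ems72, none reached an unadjusted p of 0.05. Sobic.002G142300 came closest, with 0.327, 0.480 and 0.779 CPM in bri1-ems72 and 0.928, 0.802 and 1.85 CPM in WT-ems72 (log2 fold change -1.17, SE 0.56; edgeR unadjusted p = 0.073). Without WT-ems72 replicate 3 its log2 fold change was -0.71. Sobic.002G148750 had 9.31 ± 1.11 CPM in bri1-ems72 and 12.5 ± 2.37 CPM in WT-ems72 (SD, n = 3 each), and its log2 fold change was -0.43 (SE 0.24). Without WT-ems72 replicate 2 it was -0.27.

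**Figure D4:**
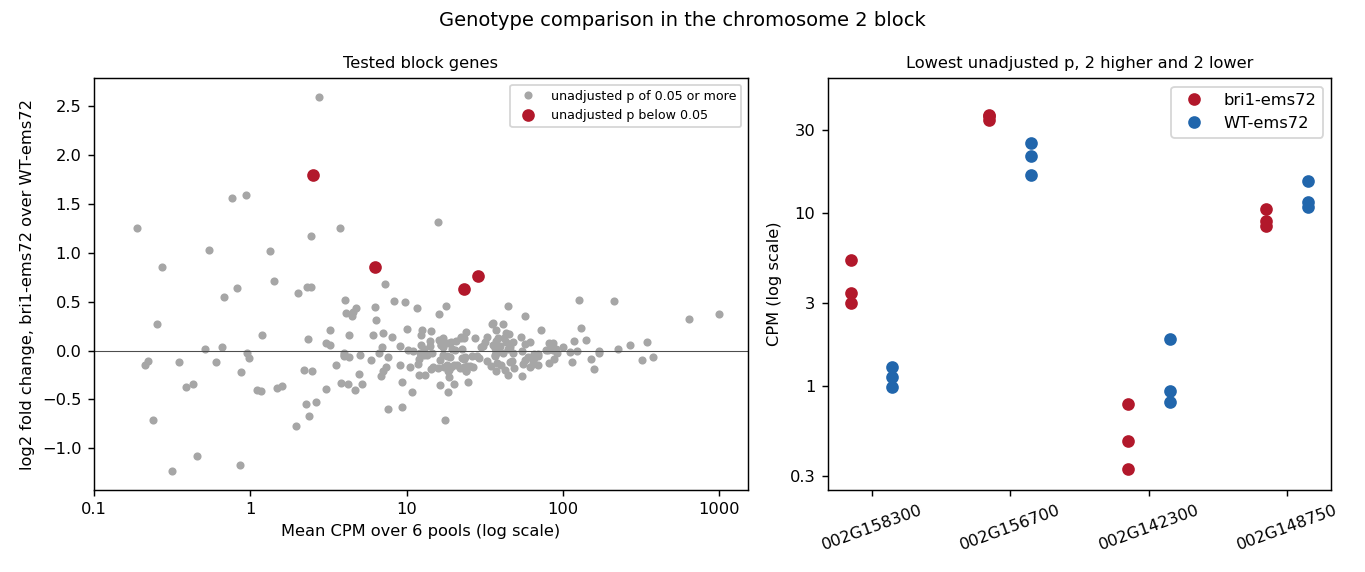
Left, log2 fold change of bri1-ems72 over WT-ems72 against mean CPM (log scale) for the 249 tested genes of the stretch, with the 4 at an unadjusted p below 0.05 in red; right, CPM (log scale) in each pool for the 2 genes of lowest p in each direction, bri1-ems72 left of WT-ems72. The fold changes centre on a median of -0.021, and Sobic.002G158300 has 3.01 to 5.33 CPM in bri1-ems72 and 0.985 to 1.27 CPM in WT-ems72.

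The largest fold change of the tested genes belonged to a gene read mainly in bri1-ems72 replicate 1. Sobic.002G143766 had a log2 fold change of 2.59 with an SE of 2.37 (edgeR unadjusted p = 0.31), and without bri1-ems72 replicate 1 it was -6.03. The value thus took its sign from that pool. The log2 fold change had a 95% interval inside ±1 for 161 of the 249 genes (64.7%), against 1417 of 2817 (50.3%) on the rest of chromosome 2. These intervals are not adjusted over genes.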

How the data were processed

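The deposited table held unnormalized read counts for each gene. Reads were paired, of 100 nt, from stranded mRNA libraries, per the labels' protocols. The submitters' processing notes name HISAT2 2.1.0 and featureCounts 1.6.2, beside FastQC 0.11.2 and Trimmomatic 0.38, and R 4.1.1 with edgeR 3.34.1. Neither the genome build nor whether counting used strand is given in the sources used here, so overlapping antisense genes and near-identical copies may share reads. Of 12 columns, each of 6 names stood on 2, which were summed per pool (n = pools). No label says whether pools came from separate plantings, so p-values measure the spread between these pools.

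Genes were filtered with filterByExpr (23707 kept, 10422 removed), scaled with TMM and fitted with genotype only (edgeR 4.0.16 in R 4.3.3, quasi-likelihood, two-sided, Benjamini-Hochberg over all tested genes, threshold 0.05). The SE is the log2 fold change divided by the root of its F statistic. Log2 CPM used a prior count of 2. The fit was tested on simulated data. Alternatives used DESeq2 1.42.0 and limma 3.58.1. Of the table's IDs, 0 matched the RefSeq gene table as written, so no names, coordinates or sequences are given. The members, the named genes (read in some pools only, their neighbours, the nearest to the limits, the most abundant, the lowest p, the largest gaps) and the thresholds were chosen with earlier results of these data known. Of the genes named by p, 2 in each direction are given by ID.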

Additional observations from a re-analysis of the deposited data

How the results depend on the processing

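The genotype comparison called 0 genes of the stretch under 15 of its 16 alternatives; DESeq2 called 1, and the cause was not tested. Genes at an unadjusted p below 0.05 numbered 4, with 7 in the replicate block by description number (2.81%, against 1.77% of the table), 12 in the replicate block by title number (4.82%, against 5.53% of the table) and 4 to 8 when each pool was left out (8 without bri1-ems72 replicate 3, where the table had 2.12%, and 7 without WT-ems72 replicate 3, where it had 1.84%). In the block by title number, bri1-ems72 replicate 1 and WT-ems72 replicate 2 match no other pool and drop out of the contrast. Pools of the same description number deviated together with correlations of 0.044, -0.23 and 0.40. The 2 pairs of the same title number had 0.39 and 0.40, the highest of the 9 pairs, but 2 pairs are too few to take the pools as paired. The log2 fold change of Sobic.002G143766 was 2.59, and 0.41 in the replicate block by description number, -6.32 in the replicate block by title number, -0.32 with limma-voom and -6.03 to 4.72 when each pool was left out, the lowest without bri1-ems72 replicate 1; that of Sobic.002G124700 was -0.093 to 0.78, again lowest without that pool. That of Sobic.002G148750 was -0.43, and -0.195 in the replicate block by title number. The median log2 fold change of the stretch was 0.019 in the block by title number and 0.037 without WT-ems72 replicate 2. The genes read in some pools only numbered 4, of which 3 shared the pattern. They numbered 2 and 1 with a highest pool of at least 2 CPM, 1 and 1 with the first-listed columns, and 1 and 1 with IDs 130000 to 150000. A count of 0 as the negative limit gave 2 genes read in some pools only. Without each pool in turn there were 0 to 6 of them, 0 of them without bri1-ems72 replicate 1, and 3 had the shared pattern in each case that kept both pools. The 6 genes with a log2 gap over 1 numbered 3 with IDs 130000 to 150000 and 1 among genes that passed the low-count filter, which removes most genes read in 2 pools; this count and the choice of genes for it were added after the data were seen. The difference in summed level ran from -164 to 1097 CPM when each pool was left out. Counts of 14 to 92 in WT-ems72 replicate 1 limit the shares given for single genes.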
